A study of Mus musculus with 48 samples.

Results

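Simple epithelial keratins and uroplakins are proteins of epithelia that consist of a single cell layer or that line the urinary tract. The family described here had 9 members, the keratin genes Krt7, Krt8, Krt18 and Krt19 and the uroplakin genes Upk1a, Upk1b, Upk2, Upk3a and Upk3b, of 46983 genes in the table. The members were chosen by the measured levels of Krt19 and Upk3a in these same libraries, which had marked ventral skin in refractory telogen in earlier results. The values of refractory telogen that led to this choice are therefore given as a description, with no test. The study compared hair growth between skin domains of the mouse, and whole skin of C57BL/6 mice was sequenced for it. The groups were chin, ventral and dorsal skin, each in refractory telogen (the resting phase in which follicles do not respond to growth signals), competent telogen (the resting phase in which they can), early anagen, mid anagen and late anagen (growth) and catagen (regression). Each of these 18 groups had 2 or 3 libraries, 43 in all. A second table held 2 libraries of telogen ear skin, 3 of the ear cartilage/muscle complex and 2 of dorsal competent telogen skin that were identical to those of the first table. No genetic change or agent was given in the labels for these libraries, and neither the age of the mice nor whether replicates came from separate animals was stated, so p-values measure only the spread between these libraries.

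Keratins are intermediate filament proteins that assemble as pairs of a type II and a type I chain. Krt8 (type II) and Krt18 (type I) form the main pair of simple epithelia, and Krt7 (type II) and Krt19 (type I) are added to them in ducts and glands. In skin, Krt8 and Krt18 are known from Merkel cells, and Krt19 from the outer root sheath, the bulge of the hair follicle and the ducts of glands. Uroplakins form plaques in the apical membrane of the urothelium. Upk1a and Upk1b are tetraspanins, and Upk2, Upk3a and Upk3b are single-pass partners that leave the endoplasmic reticulum bound to them: Upk1a pairs with Upk2 and Upk1b with Upk3a or Upk3b. Upk3b is also known from mesothelium.

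In the mouse genome (GRCm38), 3 of the 4 keratins lay on chromosome 15. Krt7 (ENSMUSG00000023039.16) lay at chr15:101411043-101430313 on the plus strand, Krt8 (ENSMUSG00000049382.9) at chr15:101996698-102004482 on the minus strand and Krt18 (ENSMUSG00000023043.6) at chr15:102028180-102032027 on the plus strand. Krt8 and Krt18 were thus neighbours with their start sites facing each other across 23697 bases. Krt19 (ENSMUSG00000020911.14) lay at chr11:100140810-100148665 on the minus strand. Of the uroplakins, Upk3a (ENSMUSG00000022435.5) was also on chromosome 15, at chr15:85017141-85022547. Upk1a (ENSMUSG00000006313.4) was at chr7:30603092-30612847, Upk1b (ENSMUSG00000049436.4) at chr16:38773184-38800328, Upk2 (ENSMUSG00000041523.2) at chr9:44452715-44454976 and Upk3b (ENSMUSG00000042985.7) at chr5:136038496-136046487. The annotation places Gm671 on the strand opposite Krt7 and Gm36026 opposite Krt8, and the library protocol did not mark strand, so reads of such partners cannot be told apart.

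Promoter sequences of 6 of the 9 members were in the RefSeq table (GRCm38.p6), and 3 are shown, that of Upk3a because its level separated ventral skin most sharply and those of Krt8 and Krt18 because the pair moved together. The windows end at the base before the gene, read 5' to 3' on the strand of the gene, and cover chr15:85016891-85017140 (plus, 250 bases) for Upk3a, chr15:102004483-102004592 (minus, 110 bases) for Krt8 and chr15:102027966-102028179 (plus, 214 bases) for Krt18, without bases that GENCODE assigns to the gene. Capitals mark matches on either strand. The motifs searched were the TATA box TATAAA, the GC box GGGCGG and the GATA factor motif AGATAA. The FOXA factor motif TGTTTAC was searched too. The last was the Ets factor motif GGAAGT, and no matches overlapped.
Upk3a: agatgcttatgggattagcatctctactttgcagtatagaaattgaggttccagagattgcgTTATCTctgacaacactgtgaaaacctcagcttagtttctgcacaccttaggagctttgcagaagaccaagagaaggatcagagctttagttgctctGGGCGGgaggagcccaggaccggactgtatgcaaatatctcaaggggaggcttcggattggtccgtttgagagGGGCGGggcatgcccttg
Krt8: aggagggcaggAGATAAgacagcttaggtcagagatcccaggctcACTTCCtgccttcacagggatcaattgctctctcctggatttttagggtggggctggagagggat
Krt18: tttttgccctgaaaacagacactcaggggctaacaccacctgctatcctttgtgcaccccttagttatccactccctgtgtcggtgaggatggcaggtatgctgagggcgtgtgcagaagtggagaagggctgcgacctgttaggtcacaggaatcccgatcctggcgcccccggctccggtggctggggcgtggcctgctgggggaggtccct
Upk3a held 2 GC boxes, starting 91 and 18 bases before the gene, and 1 GATA match on the opposite strand, starting 188 bases before it. GC boxes were found in 32.7% and GATA matches in 9.99% of 32851 promoter windows of that length. Krt8 held 1 GATA match (4.93% of windows of its length) and 1 Ets match on the opposite strand (7.59%). None of the 5 motifs was in the Krt18 window, and neither a TATA box (12.4% of windows of 250 bases) nor a FOXA match (3.17%) was in that of Upk3a.

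Levels were read as FPKM, fragments scaled to transcript length and library size, a unit in which different genes can be compared. Depth was estimated from what 1 fragment was worth in genes with a single transcript, and was about 6591320 to 26822009 fragments per skin library by this estimate, and 1 fragment of Upk3a was worth 0.0395 to 0.165 FPKM. Some libraries stood apart from their labels. Those of chin late anagen and dorsal competent telogen differed from each other by a median of 0.101 to 0.115 in log2(FPKM + 1) over genes, within the range of replicates of a group (0.0868 to 0.289), and the summed level of 9 growing hair follicle genes was 19544 to 19800 FPKM in dorsal competent telogen against 4202 to 4519 FPKM in ventral early anagen. The 2 ventral refractory telogen libraries were the least alike of all replicates (0.289), and 1 ventral catagen library has a tissue location in its labels that conflicts with its title. Counts of members that differed among domains, the interaction and the catagen count are also given without these libraries. The ear comparisons, the correlations over groups and the refractory telogen values are not.

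The 4 keratins were detected in all 43 skin libraries, and their levels spanned very different ranges. Krt7 varied least, from 0.78 to 4.65 FPKM with a median of 1.35 FPKM. Krt8 ranged from 1.21 to 28.6 FPKM (median 4 FPKM), Krt18 from 0.45 to 61.9 FPKM (median 19.4) and Krt19 from 0.69 to 58.1 FPKM (median 3.72). All 4 had their highest group mean in ventral refractory telogen, and the ratio of the highest to the lowest group mean was 4.79 for Krt7, 20.7 for Krt8, 90.9 for Krt18 and 39.2 for Krt19. Among the uroplakins, Upk1a ranged from 0.22 to 4.22 FPKM and Upk1b from 0.28 to 4.42 FPKM, and Upk2 reached at most 1.93 FPKM and was listed at 0 in 7 libraries. Upk3a was listed at 0 in 28 of 43 libraries and reached 24.96 FPKM, whereas Upk3b was above 0 in all of them and reached at most 3.49 FPKM.

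**Figure D1:**
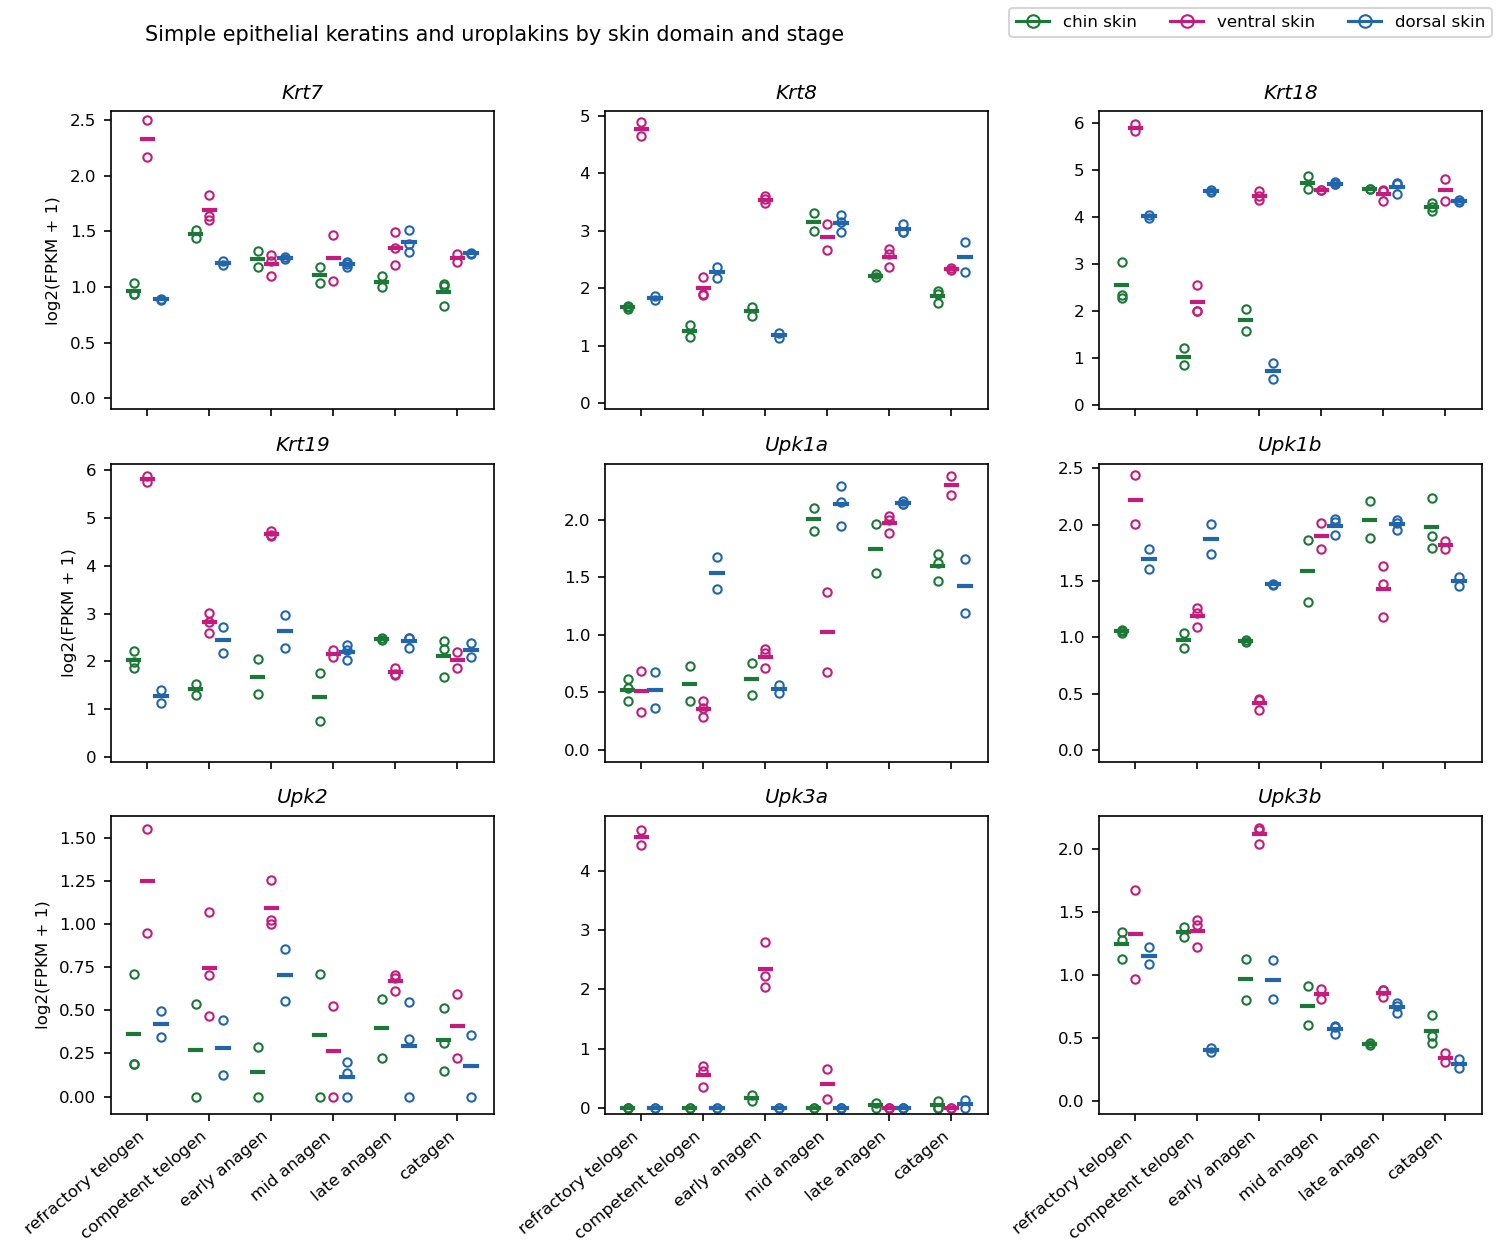
Level of each of the 9 genes in log2(FPKM + 1) at 6 stages, with a circle for each library and a bar for the group mean in chin (green), ventral (magenta) and dorsal (blue) skin; each panel has its own scale. Krt7, Krt8, Krt18, Krt19, Upk1b, Upk2 and Upk3a had their highest mean in ventral refractory telogen, Upk3b in ventral early anagen (3.35 FPKM) and Upk1a in ventral catagen (3.94 FPKM).

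In refractory telogen, the contrast behind the choice of the family, both ventral libraries were above every chin and dorsal library for 7 of the 9 members. Among all 17669 genes above the filter on low values, this held for 4.69%. Upk2 and Upk3a met this filter only with the ventral libraries, and Krt19 and Upk3a had led to the choice. The count is therefore no independent result. Krt19 was at 52.93 and 58.08 FPKM in ventral skin, at 2.61, 2.98 and 3.62 FPKM in chin skin and at 1.18 and 1.65 FPKM in dorsal skin. Krt8 was at 24.14 and 28.6 FPKM in ventral skin, at 2.11 to 2.23 FPKM in chin skin and at 2.47 and 2.66 FPKM in dorsal skin. The ventral mean of Krt8 was 12.1-fold above chin skin and 10.3-fold above dorsal skin. Krt18 was at 55.39 and 61.92 FPKM in ventral skin against 3.83, 4.01 and 7.25 FPKM in chin skin. Dorsal skin held more of it than chin skin, 14.8 and 15.41 FPKM, although Krt8 was near its chin level there. Krt7 was lower throughout, with 3.49 and 4.65 FPKM in ventral skin and 0.84 to 1.05 FPKM in the other domains.

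Among the uroplakins in refractory telogen, Upk3a was at 20.67 and 24.96 FPKM in ventral skin and listed at 0 in all 3 chin and both dorsal libraries. Its tetraspanin partner Upk1b was at 3.02 and 4.42 FPKM in ventral skin, 1.06 to 1.1 FPKM in chin skin and 2.05 and 2.45 FPKM in dorsal skin, so that the dorsal and ventral ranges were much closer than for Upk3a. Upk2 was at 0.93 and 1.93 FPKM in ventral skin and at most 0.64 FPKM elsewhere. Upk1a, at 0.26 and 0.61 FPKM in ventral skin, and Upk3b, at 0.96 and 2.19 FPKM, overlapped with the other domains. Replicate 1 was the higher of the ventral libraries for both. The summed level of growing hair follicle genes was 16269 to 17007 FPKM in ventral, 14509 to 15013 FPKM in dorsal and 5323 to 7693 FPKM in chin refractory telogen. In ventral skin this sum was 7995 to 9290 FPKM in competent telogen and 17220 to 19639 FPKM in mid anagen. The ventral and dorsal values of refractory telogen lay nearer the latter. Domain and hair cycle state therefore cannot be told apart in this contrast, and their part was not tested.

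Outside refractory telogen the ventral domain was again set apart in early anagen, a stage that the choice of members did not use. The ventral early anagen libraries were among those that stood apart from their labels. Growing hair follicle genes summed to 4202 to 4519 FPKM in them and to 7240 to 12331 FPKM in the other domains. Domain and hair cycle state therefore cannot be told apart here. With limma on log2(FPKM + 1), 7 of 9 members differed among the domains at this stage, against 56% of the 20826 genes tested. In 5 of them, Krt8, Krt18, Krt19, Upk3a and Upk3b, ventral skin was above both chin and dorsal skin, which held for 8.17% of all genes. Upk1b was below both, as were 15.3% of all genes, and Upk2 was above chin skin only. Upk3a passed the filter on low values only through ventral libraries, where it was high. Its place in this count and its calls between domains at other stages are therefore no independent results. The members' median difference of ventral from chin skin was 1.15 on the log2 scale, beside -0.0645 over all genes. Over all genes, 36.6% differed between ventral and chin skin, 45.6% between dorsal and ventral skin and 31.5% between dorsal and chin skin. Without the ventral libraries of this stage 3 of 9 members differed, between chin and dorsal skin alone. In a bulk sample, fewer cells of a type and less RNA per cell cannot be told apart.

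Krt19 was at 23.6, 24.17 and 25.68 FPKM in ventral early anagen, at 1.48 and 3.13 FPKM in chin skin and at 3.85 and 6.83 FPKM in dorsal skin. The ventral mean was 10.6-fold above chin skin (log2 difference 2.99 ± 0.25 SE, adjusted p = 1.15e-09, limma) and 4.58-fold above dorsal skin (2.05 ± 0.25 SE, adjusted p = 4.32e-07, limma). Ventral libraries lay far outside the range of both other domains. Krt8 was at 10.1, 10.68 and 11.15 FPKM in ventral skin, 1.86 and 2.2 FPKM in chin skin and 1.21 and 1.34 FPKM in dorsal skin. Krt18, its partner, was at 19.34, 20.78 and 22.34 FPKM against 1.94 and 3.11 FPKM in chin skin and 0.45 and 0.84 FPKM in dorsal skin. The dorsal mean was the lowest of Krt18 among the 18 groups, although its libraries overlapped with those of chin competent telogen. The ventral mean exceeded the dorsal mean 32.3-fold (log2 difference 3.74 ± 0.16 SE, adjusted p = 3.01e-15, limma). Krt7 showed no such split, with 1.14 to 1.44 FPKM in ventral skin and 1.27 to 1.51 FPKM in the other domains (adjusted p = 0.78 and 0.74 against chin and dorsal skin, limma).

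Upk3a was at 3.11, 3.66 and 5.94 FPKM in ventral early anagen and at 0.08 and 0.16 FPKM in chin skin. It was listed at 0 in both dorsal libraries. The log2 difference from chin skin, given as a description, was 2.19 ± 0.15 SE. Upk3b was at 3.11, 3.44 and 3.49 FPKM in ventral skin and between 0.74 and 1.19 FPKM in the others, its highest group in the whole series. It exceeded chin and dorsal skin 3.47-fold and 3.49-fold (log2 differences 1.15 ± 0.11 and 1.16 ± 0.11 SE). The summed level of 10 epidermal genes moved with it, at 16084 to 16703 FPKM in ventral and 5788 to 7845 FPKM in the other domains, and its part was not tested. Upk1b, the tetraspanin that both can bind, moved the other way. It was at 0.28, 0.36 and 0.37 FPKM in ventral skin, 0.94 and 0.97 FPKM in chin skin and 1.76 and 1.78 FPKM in dorsal skin (log2 difference from dorsal skin -1.05 ± 0.15 SE, adjusted p = 2.22e-06, limma). The ventral early anagen level was the lowest among the 18 groups for Upk1b, as was that of the growing hair follicle genes, whose part was not tested. Upk2 was at 1.0 to 1.39 FPKM in ventral skin and differed from chin skin, at 0 and 0.22 FPKM (adjusted p = 0.0016, limma), but not detectably from dorsal skin, at 0.47 and 0.81 FPKM (adjusted p = 0.17). Upk1a, at 0.39 to 0.84 FPKM in all 7 libraries, did not pass the test.

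**Figure D2:**
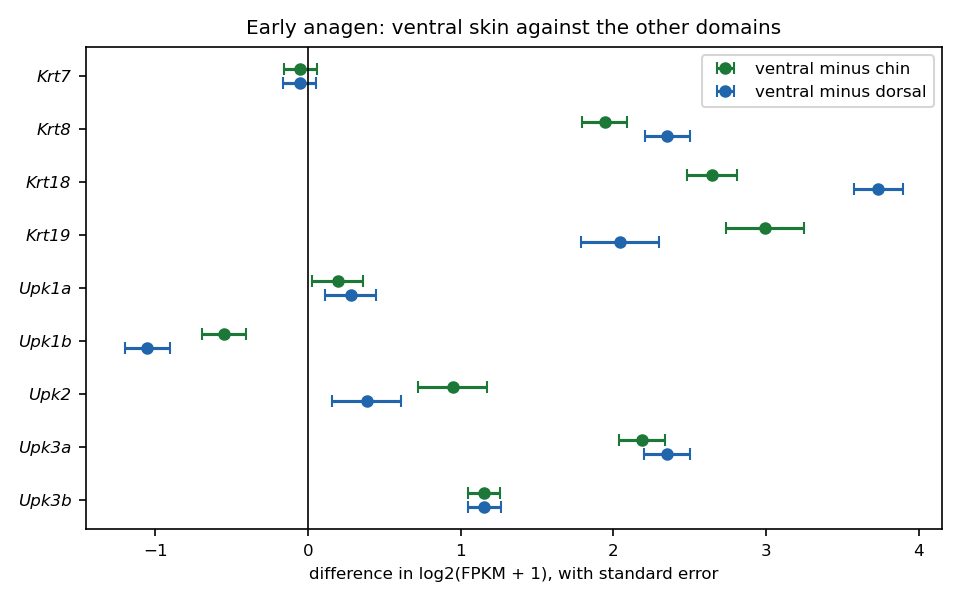
Difference of ventral skin from chin skin (green) and dorsal skin (blue) in early anagen for each member, in log2(FPKM + 1), with bars of 1 standard error from the limma fit. Krt8, Krt18, Krt19, Upk3a and Upk3b lie to the right of 0 in both comparisons, from 1.15 to 3.74, Upk1b lies to the left in both, at -0.55 and -1.05, and Krt7 at -0.05 in both.

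In competent telogen, 8 of 9 members differed among the domains (58.5% of all genes), and only Upk2 did not pass. The order was different from early anagen. Krt18 was highest in dorsal skin, at 21.92 and 22.6 FPKM, against 2.96, 2.96 and 4.85 FPKM in ventral skin and 0.78 and 1.29 FPKM in chin skin. Each step was larger than the spread of libraries, with log2 differences of 3.53 ± 0.18 SE between dorsal and chin skin (adjusted p = 8.14e-14, limma) and 1.16 ± 0.16 SE between ventral and chin skin (adjusted p = 9.03e-06, limma). Upk1a and Upk1b were also higher in dorsal than in both other domains, with 1.63 and 2.19 FPKM and 2.35 and 3.01 FPKM in dorsal skin and at most 0.66 and 1.4 FPKM elsewhere. Upk3b ran in the opposite direction, at 0.31 and 0.34 FPKM in dorsal skin and 1.33 to 1.7 FPKM in the other domains. Upk3a was at 0.28, 0.54 and 0.63 FPKM in ventral skin and listed at 0 in all chin and dorsal libraries. It was the only member in which ventral skin exceeded both other domains at this stage (14.2% of all genes did). The log2 difference was 0.56 ± 0.15 SE from either. Upk3a passed the filter only through ventral libraries, so this is given as a description. Krt19, at 5.05 to 7.08 FPKM in ventral skin, exceeded chin skin, at 1.46 and 1.88 FPKM, but not dorsal skin, at 3.52 and 5.62 FPKM (adjusted p = 0.25, limma). Over all genes, 27.2% differed between ventral and chin skin, 41.1% between dorsal and chin skin and 51.2% between dorsal and ventral skin. The median log2 difference over all genes was -0.263 for dorsal minus ventral and -0.203 for dorsal minus chin skin. Krt7 was lower in dorsal than in ventral skin. This call was lost with the median of ratios (adjusted p = 0.18) and quantile normalization (adjusted p = 0.16, limma). Without the dorsal libraries of this stage, which stood apart from their label, 4 of 9 members differed between ventral and chin skin: Krt8, Krt18, Krt19 and Upk3a.

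From mid anagen on, fewer members differed among the domains. In mid anagen 2 of 9 members differed among the domains (43.4% of all genes), Krt19 and Upk1a. Upk1a was at 0.6 and 1.59 FPKM in ventral skin, below chin skin (2.75 and 3.29 FPKM) and dorsal skin (2.86 to 3.91 FPKM), as were 8.4% of all genes. Krt19 was at 0.69 and 2.35 FPKM in chin skin and 3.1 to 4.04 FPKM in the others. Its log2 differences from chin skin were 0.91 in ventral and 0.95 in dorsal skin. Without chin mid anagen replicate 2 they were 0.42 and 0.46, and both calls were lost. The ventral call was also lost without ventral mid anagen replicate 1 (0.83) or replicate 2 (0.99). The count of members moved with either chin library left out. Over all genes, 26.7% differed between ventral and chin skin, 21.4% between dorsal and chin skin and 33% between dorsal and ventral skin. In late anagen 5 of 9 members differed (26.9% of all genes), namely Krt7, Krt8, Krt19, Upk1b and Upk3b. Krt8 was higher in dorsal skin, at 6.84 to 7.72 FPKM, than in chin skin, at 3.57 and 3.76 FPKM (log2 difference 0.81 ± 0.15 SE, adjusted p = 0.00022, limma). The count fell to 2 without either chin library of this stage (replicate 1 or 2) or without both, and to 3 without dorsal late anagen replicate 1 or 2. Upk1b was below both other domains in ventral skin, at 1.27 to 2.11 FPKM (0.802% of all genes were), but not without ventral late anagen replicate 2 (adjusted p = 0.084 against dorsal skin) or chin late anagen replicate 2 (adjusted p = 0.12 against chin skin, limma). Between ventral and chin skin 20.4% of all genes differed, between dorsal and chin skin 24.3% and between dorsal and ventral skin 5.13%. In catagen 4 of 9 members differed (47.1% of all genes), Krt7, Krt8, Upk1a and Upk1b, and the count was 2 without chin catagen replicate 3. Upk1a was highest in ventral catagen, at 3.65 and 4.22 FPKM, and exceeded dorsal skin, at 1.28 and 2.15 FPKM (dorsal minus ventral log2 difference -0.88 ± 0.18 SE, adjusted p = 0.00044, limma). It exceeded chin skin as well (0.984% of all genes exceeded both), but not without ventral catagen replicate 2 (adjusted p = 0.1, limma). Between ventral and chin skin 8.46% of all genes differed, between dorsal and chin skin 44.4% and between dorsal and ventral skin 39.1%. Without the ventral catagen library of conflicting label the count at this stage stayed at 4. Krt18 did not pass at any of these 3 stages, with all of its libraries between 16.42 and 28.0 FPKM.

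Within a domain, the members fell into different courses over the 5 tested stages. In ventral skin all 9 changed with stage (71% of all genes), in chin skin 7 (57.6%; not Upk2 or Upk3a) and in dorsal skin 5 (67.2%; Krt8, Krt18, Upk1a, Upk1b and Upk3b). From competent telogen to early anagen, Krt8, Krt18, Krt19, Upk1a, Upk3a and Upk3b rose in ventral skin and Krt7 and Upk1b fell (46% of all genes changed). Krt18 rose 5.8-fold there, from a mean of 3.59 to 20.8 FPKM (log2 difference 2.27 ± 0.14 SE, adjusted p = 5e-12, limma), and Upk3a by 1.79 ± 0.13 SE on the log2 scale. The rise of Upk1a was small (0.45 ± 0.15 SE) and was lost without ventral competent telogen replicate 3 (adjusted p = 0.052) or ventral early anagen replicate 2 (adjusted p = 0.054). In dorsal skin the same step went the other way for the first pair. Krt18 fell by 3.83 ± 0.18 SE and Krt8 by 1.10 ± 0.16 SE on the log2 scale, Upk1a and Upk1b fell too, and Upk3b rose (46.9% of all genes changed). The dorsal competent telogen libraries stood apart from their label, as stated above. The fall of Upk1b was lost without dorsal competent telogen replicate 2 (adjusted p = 0.29) or either dorsal early anagen library (adjusted p = 0.12 and 0.11, limma). In chin skin Krt18 alone rose (3.24% of all genes changed), and not without chin competent telogen replicate 1 or chin early anagen replicate 2 (adjusted p = 0.25 and 0.2, limma).

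From early to mid anagen, the keratin pair rose in chin and dorsal skin (23.5% and 42.9% of all genes changed). Growing hair follicle genes moved with it in dorsal skin, where 7 of 9 rose and 1 fell and their sum went from 7240 to 7695 FPKM to 24855 to 25451 FPKM, and in chin skin, where 4 of 9 rose and 1 fell. Their part was not tested. Krt18 went from 1.94 and 3.11 to 28.0 and 23.15 FPKM in chin skin and from 0.84 and 0.45 to 24.76, 24.76 and 25.59 FPKM in dorsal skin, a 38.8-fold rise of the dorsal mean (log2 difference 3.99 ± 0.16 SE, adjusted p = 6.46e-16, limma). Krt8 rose by 1.56 ± 0.16 SE in chin skin and 1.95 ± 0.15 SE in dorsal skin on the log2 scale, and Upk1a by 1.39 ± 0.18 and 1.60 ± 0.17 SE. Upk1b rose in all 3 domains, although in chin skin not without chin mid anagen replicate 1 (adjusted p = 0.16, limma). In ventral skin Krt18, already at 19.34 FPKM or more, did not change detectably, while Krt19, Upk3a and Upk3b fell (46.2% of all genes changed). Epidermal genes fell there too, 9 of 10 of them, with a median log2 difference of -1.54, and growing hair follicle genes rose, 9 of 9, with a median of 2.04; their part was not tested. Krt19 fell by 2.51 ± 0.25 SE, Upk3a by 1.95 ± 0.15 SE and Upk3b by 1.27 ± 0.11 SE on the log2 scale. Krt8 and Upk2 also fell, but not without ventral mid anagen replicate 1 (adjusted p = 0.051 and 0.11, limma). From mid to late anagen 3 members changed in chin skin (24%), 3 in ventral skin (28.3%) and 0 in dorsal skin (3.53%), where 1 had an unadjusted p under 0.05 in limma. In chin skin Krt19 and Upk1b rose and Krt8 fell, but without chin mid anagen replicate 2 neither Krt19 (adjusted p = 0.079) nor Upk1b (adjusted p = 0.53) passed, which left 1 member, and Upk1b did not pass without chin late anagen replicate 2 either (adjusted p = 0.36, limma). In ventral skin Upk1a rose and Upk1b and Upk3a fell. Without ventral late anagen replicate 2 neither Upk1b (adjusted p = 0.1) nor Upk3a (adjusted p = 0.087) passed, which left 1 member. Upk1b was also lost without ventral mid anagen replicate 2 (adjusted p = 0.21), and Upk3a without most single libraries, with the highest adjusted p, 0.62, without ventral mid anagen replicate 1 (limma). From late anagen to catagen 0 changed in chin skin (18.7%), where 2 had such a p, 1 in ventral skin (8.62%), which was Upk3b, and 4 in dorsal skin (41.7%), which were Krt8, Upk1a, Upk1b and Upk3b. Of these dorsal falls, that of Krt8 was lost without dorsal catagen replicate 2 (adjusted p = 0.34) and those of Upk1a and Upk1b without dorsal catagen replicate 1 (adjusted p = 0.065 and 0.059, limma). After mid anagen Upk3a returned to 0 in every ventral library of late anagen and catagen. The members' interaction of domain and stage passed the test in 8 of 9 genes (73.2% of all genes), all but Upk2. Without the libraries labelled dorsal competent telogen 7 of 9 passed, since Krt7 did not (adjusted p = 0.3, limma), and without those of chin late anagen or ventral early anagen 8 of 9 did.

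The known partners were also compared with each other. The ratio of Krt18 to Krt8 FPKM was not constant. Among the skin domains it was lowest in dorsal early anagen, at 0.336 and 0.694, and below 1 in both chin competent telogen libraries, at 0.639 and 0.827. It rose to 5.97 to 7.85 in chin catagen and 6.15 and 6.47 in chin late anagen. In the ventral groups of highest level the ratio was intermediate, 2.17 and 2.29 in refractory telogen and 1.86 to 2.09 in early anagen. Over the 18 group means of log2(FPKM + 1) the pair had a Pearson r of 0.80, and 0.82 over the 15 groups without refractory telogen. For the uroplakin pairs the values were unlike this. Upk1a and Upk2 had an r of -0.38 over 18 groups, and Upk1b had an r of 0.02 with Upk3a and -0.68 with Upk3b (-0.68 and -0.84 over 15 groups). Krt19 and Upk3a, by contrast, had an r of 0.92 (0.86 over 15 groups). These correlations are descriptions, in which groups share a domain or a stage, and Upk2 was near its detection limit in many libraries. Over the 15 groups the r of Krt19 with Upk3a rested largely on ventral early anagen, the highest of these groups for both.

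**Figure D3:**
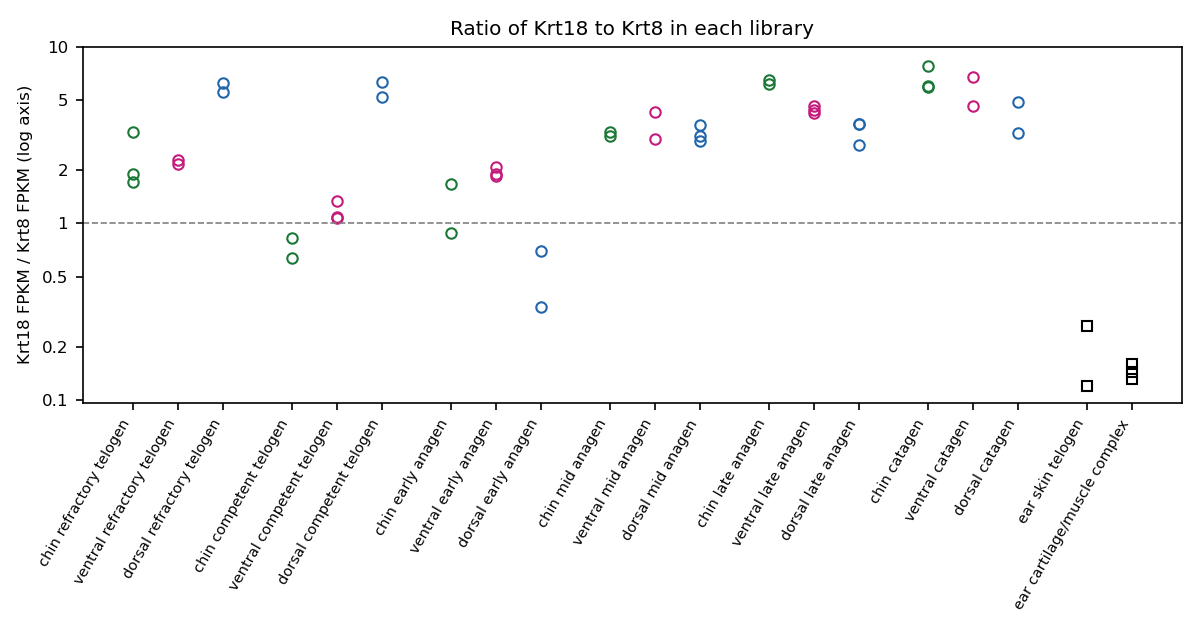
Ratio of Krt18 to Krt8 FPKM in each library on a log axis, by stage and domain (circles) and in the ear tissues (squares), with a dashed line at a ratio of 1. Skin libraries run from 0.336 to 7.85, and ear skin and the cartilage/muscle complex lie between 0.119 and 0.263.

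The genes most like each member in their pattern were sought by Pearson r over the 18 group means of log2(FPKM + 1). For Upk3a they were the fibrinogen chains Fgg (Pearson r = 0.99) and Fgb (0.99) and the transcription factor Foxa1 (0.98). Fgg was at 10.39 and 10.59 FPKM in ventral refractory telogen, 4.51 to 4.97 FPKM in ventral early anagen and at a group mean of at most 0.37 FPKM elsewhere. Foxa1 was at 0.87 and 1.21 FPKM in ventral refractory telogen and 0.47 to 0.86 FPKM in ventral early anagen. Over the 15 groups without refractory telogen, the values of r were 1.00, 0.97 and 0.96. Among these groups Upk3a had a mean of 4.24 FPKM in ventral early anagen and at most 0.483 FPKM elsewhere. These values of r thus rest largely on that 1 group and are no separate check. For Krt19 the most similar genes were Foxa1 (0.94), Fgg (0.93) and the lactoferrin gene Ltf (0.93), and for Upk2 Fgg (0.84), Foxa1 (0.83) and the chemokine Cxcl17 (0.82). These rankings include ventral refractory telogen, the group that chose the family, where such genes are high by construction. Over the 15 other groups the r of Krt19 was 0.87 with Foxa1, 0.86 with Fgg and 0.87 with Ltf, and that of Upk2 was 0.72 with Fgg, 0.70 with Foxa1 and 0.76 with Cxcl17. Krt19 and Upk2 were also highest in ventral early anagen among these groups, so the same limit holds. For Krt8 the most similar genes were Csn3, which encodes kappa-casein (0.83), Krt18 (0.80) and Gm26254 (0.76), and over the 15 other groups r was 0.71, 0.82 and 0.54. Krt18 had the fatty acid desaturase gene Fads3 (0.93), Lrrc15 (0.93) and the hair keratin-associated protein gene Krtap1-5 (0.92) beside it. Upk1a followed the late cornified envelope genes Lce3d (0.96) and Lce3c (0.96) and Star (0.95), Upk1b followed Crnn (0.83), the inner root sheath keratin Krt71 (0.82) and Asl (0.82), and Upk3b followed Nt5c3 (0.96), Sox15 (0.95) and Gm12589 (0.94). For Krt7 the highest r was 0.80, shared within 0.001 by 8 genes, 7 of which were above 0 only in ventral refractory telogen, so no gene was singled out.

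**Figure D4:**
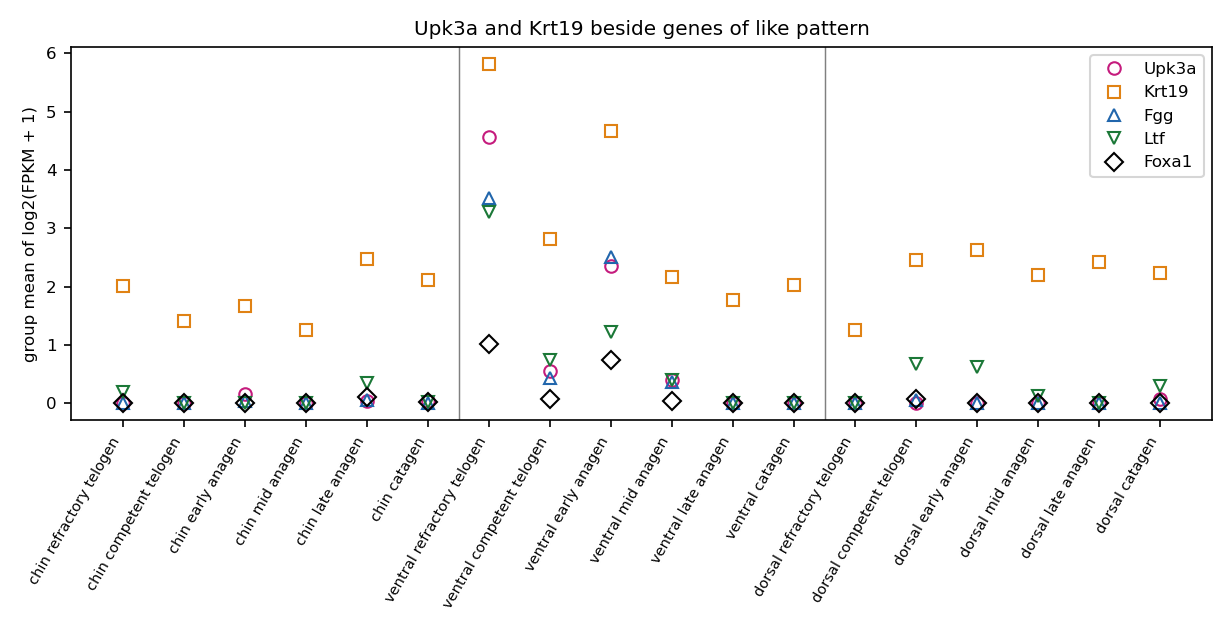
Group means of log2(FPKM + 1) of Upk3a and Krt19 and of Fgg, Ltf and Foxa1 in the 18 groups, ordered by domain and stage, with lines between domains. Each of these genes has its highest point in ventral refractory telogen and the next in ventral early anagen, where Upk3a was at 4.24 FPKM and Fgg at 4.67 FPKM.

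Genes of other cell types differed between the same groups, and their part in the members' levels was not tested. Of 14 mammary epithelium genes, 8 passed the filter in refractory telogen, which the ventral libraries alone could meet. Both ventral libraries were above all others for 5 of these, beside 4.69% of all genes. The list summed to 280 to 333 FPKM in ventral refractory telogen against 95.8 to 141 FPKM in chin and dorsal skin. In ventral skin Ltf was at a mean of 8.74 FPKM, Cited1 at 27.8 FPKM and Csn3 at 17.8 FPKM, so other genes of the list made up most of the sum. The milk protein gene Wap reached at most 0.2 FPKM in any skin library. In early anagen Csn3, Cited1 and Wfdc18 exceeded both other domains in ventral skin, 3 of the 9 mammary genes tested (8.17% of all genes did). Areg was below both (15.3% of all genes were). The 10 mesothelium genes summed to 15.47 to 20.65 FPKM in ventral, 13.11 to 21.75 FPKM in chin and 14.99 to 15.3 FPKM in dorsal refractory telogen, and to 22.3 to 23.5, 15.1 to 15.5 and 25.9 to 27.8 FPKM in early anagen. Of them, 6 had a mean of at least 1 FPKM in ventral skin at both stages, whereas Msln, Wt1 and Lrrn4 reached at most 0.27 FPKM and Muc16 was listed at 0 in every skin library, and, of 8 Merkel cell genes, Atoh1 reached at most 0.15 FPKM. The Merkel list summed to 2.51 to 3.96 FPKM in ventral refractory telogen and 2.12 to 6.35 FPKM in the other 2 domains. The 12 salivary gland genes summed to 25.1 to 32.0 FPKM in ventral, 3.38 to 4.51 FPKM in dorsal and 20.8 to 4360 FPKM in chin refractory telogen, where chin replicate 2, also the highest chin library for Krt18 at 7.25 FPKM, stood apart, and to at most 7.4 FPKM in any other ventral group. Skeletal muscle genes were lower in ventral skin, where their sum was 942 to 1011 FPKM in refractory telogen against 3333 to 16648 FPKM in chin and dorsal skin.

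A wider epithelial list moved in both directions. Of 26 other simple epithelium genes, among them Epcam, claudins and Grhl2, 7 were above both other domains in ventral early anagen and 4 below both in limma, beside 8.17% and 15.3% of all genes. Upk3bl, a uroplakin-like gene, was among the former (log2 difference from chin skin 1.89), as was the claudin Cldn3 (1.26), and Cldn8 (-1.07) was among the latter. The median difference of the list was 0.0289 from chin skin and 0.43 from dorsal skin. Of 8 other urothelium genes 3 were above both other domains, Foxa1, Pparg and Psca, and Shh was below both. In refractory telogen, given as a description, 4 of the 26 genes had both ventral libraries above the rest (4.69% of all genes did). Cldn7, at a mean of 6.61 FPKM against 1.59 FPKM in chin and 1.46 FPKM in dorsal skin, was among the 4. Relative to growing hair follicle genes, the members also differed. Over the 18 groups the r with their summed level was 0.83 for Upk1b, 0.73 for Upk1a and 0.57 for Krt18, and -0.78 for Upk3b, -0.43 for Upk2 and -0.28 for Krt19. With epidermal genes Upk3b had an r of 0.96.

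In the ear table, 6 members passed the filter on low values, the 4 keratins, Upk1a and Upk1b. Of these, 4 were lower in telogen ear skin than in dorsal competent telogen skin (14.6% of all 19299 genes tested were) and none was higher (44.7%). The 4 were Krt8, Krt18, Upk1a and Upk1b. The median log2 difference over all genes was 0.33 in this comparison and 0.017 with the median of ratios, so the shares carry a shift of scale. These dorsal libraries also stood apart from their label. Upk1b passed the filter only through the dorsal libraries, where it was high, so its place in this count is no independent result. Krt18 was at 0.05 and 0.2 FPKM in ear skin and at 21.92 and 22.6 FPKM in dorsal skin (log2 difference -4.37 ± 0.12 SE, adjusted p = 1.38e-06, limma). Upk1b was at 0.04 FPKM in both ear skin libraries and at 2.35 and 3.01 FPKM in dorsal skin (log2 difference -1.82 ± 0.12 SE, given as a description). Krt19 was at 6.08 and 6.85 FPKM in ear skin and did not pass (adjusted p = 0.081, limma), and Krt7 was at 1.01 and 1.03 FPKM. The 3 members below the filter were at most 0.46 FPKM in any of these libraries, with Upk3b at 0.36 and 0.42 FPKM in ear skin and at most 0.03 FPKM in the cartilage/muscle complex, and Upk3a above 0 in 1 ear skin library only, at 0.07 FPKM. The growing hair follicle genes, which summed to 136 to 144 FPKM in ear skin and 19544 to 19800 FPKM in these dorsal libraries, moved with this comparison, and their part in it was not tested.

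In the cartilage/muscle complex Krt8 was at 15.38, 16.76 and 20.37 FPKM, against 0.42 and 0.76 FPKM in ear skin (log2 difference 3.54 ± 0.15 SE, adjusted p = 4.7e-06, limma) and 3.55 and 4.19 FPKM in dorsal skin (1.92 ± 0.15 SE, adjusted p = 6.6e-05). Krt18 was at 2.2, 2.66 and 2.68 FPKM, above ear skin and below dorsal skin. Krt8 thus exceeded its type I partner in every library of the complex, with a ratio of Krt18 to Krt8 of 0.132 to 0.159, as it did in ear skin, at 0.119 and 0.263, whereas the ratio was 5.23 and 6.37 in dorsal skin. Krt19 was at 0.74 to 0.89 FPKM and Krt7 at 0.03 to 0.1 FPKM, both below ear skin. In all, 3 of the 6 members were higher than in ear skin (28% of all genes) and 2 were lower (38.5%), and the small difference of Upk1a (0.34 ± 0.12 SE) was lost when any single library of either tissue was left out. Compared with dorsal skin, Krt8 was higher (42.8% of all genes were) and Krt7, Krt18, Krt19 and Upk1b were lower (28.3%). Upk1b again passed the filter only through the dorsal libraries. Epidermal genes summed to 8.02 to 8.46 FPKM in the complex and to 13969 to 14966 FPKM in ear skin, and 22 of the 26 other simple epithelium genes were lower than in ear skin and 2 higher. The 8 Merkel cell genes summed to 9.86 to 13.7 FPKM against 4.93 to 5.11 FPKM in ear skin. Of the 4 that passed the filter, 3 were higher and 1 was lower. The 12 salivary gland genes summed to 47.2 to 51.4 FPKM against 8.12 to 8.36 FPKM, with 6 of them at 0 in every library of the complex. Of the 4 salivary genes that passed the filter, 3 were higher and 0 lower. Cartilage genes were higher, 10 of 10, with sums of 1620 to 1978 FPKM against 31.3 to 32.6 FPKM. Only 1 of them had a mean of at least 1 FPKM in ear skin, against 10 in the complex. The complex alone could meet the filter, so the Merkel, salivary and cartilage counts are no independent results. The part of these lists in the level of Krt8 was not tested.

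**Figure D5:**
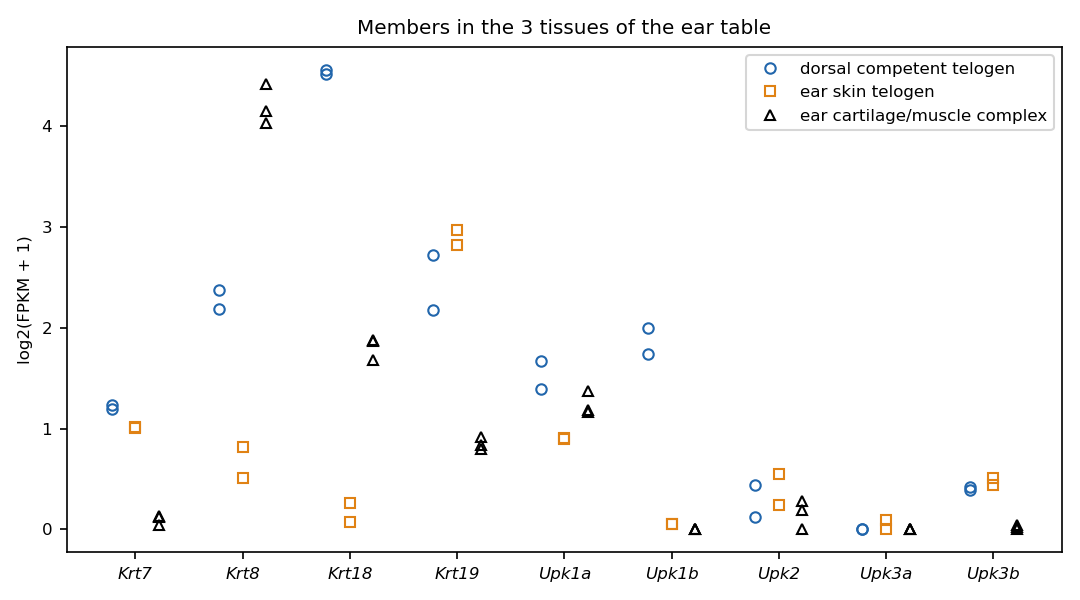
Level of each member in log2(FPKM + 1) in dorsal competent telogen skin (blue circles), telogen ear skin (orange squares) and the ear cartilage/muscle complex (black triangles), with a mark for each library. Krt8 is highest in the complex, at 15.38 to 20.37 FPKM, and Krt18 in dorsal skin, at 21.92 and 22.6 FPKM.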

How the data were processed

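Whole skin and ear tissue RNA was made into SMART-seq2 libraries and read as paired ends by the authors, who quantified genes with RSEM 1.2.25 on mm10 with GENCODE vM8. The deposited values are FPKM with 2 decimals. The authors describe a batch correction but name no batches, so results within batches could not be had. The members and gene lists were chosen with earlier results of these data known. A gene was tested where 2 or more libraries reached 0.5 FPKM, on log2(FPKM + 1), with limma 3.58.1 in R 4.3.3 (variance trend, Benjamini-Hochberg adjustment, threshold 0.05). The 36 skin libraries outside refractory telogen entered as 15 groups, and the 7 libraries of the ear table entered a fit of their own. The procedure was tested on simulated data. Named genes were the members, the 3 genes of highest r with each, and, from each list, the 2 highest and the lowest in ventral refractory telogen and those listed at 0. Other list genes were named after their values were seen. Alternatives were a pseudocount of 0.1, no filter, a minimum of 5 FPKM, TPM, median of ratios and quantile scaling, a fit without the trend, a block for the replicate number, all 43 skin libraries together, and leaving out each library. Leaving out whole groups of libraries was chosen after seeing the data. Depths cover counting error only. Summaries used Python 3.11.15.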

Additional observations from a re-analysis of the deposited data

Results flagged for a closer look

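The difference between skin domains changed with the hair cycle stage in 8 members, by the interaction term of the limma fit over 15 groups, which 73.2% of all genes passed. The adjusted p was 9.62e-15 for Krt18, 1.73e-10 for Krt8, 2.61e-09 for Upk3a, 3.33e-08 for Upk3b, 1.2e-07 for Krt19, 8.78e-07 for Upk1a, 1.06e-05 for Upk1b and 0.0089 for Krt7, which was lost without the libraries labelled dorsal competent telogen (adjusted p = 0.3). Upk3a passed the filter only through ventral libraries, so its value is a description. For Krt18 the ventral minus dorsal difference turned from -2.37 in competent telogen to 3.74 in early anagen on the log2 scale. This turn rests on dorsal competent telogen and ventral early anagen, which are among the libraries that stood apart from their labels. The interaction of Krt18 still passed without the former (adjusted p = 1.68e-11) or the latter (adjusted p = 9.13e-11, limma). Groups of 2 or 3 libraries were too small to search for single outlying libraries.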

How the results depend on the processing

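With a minimum of 5 FPKM only 3 members were tested, and the counts of members that differed were 3 in competent telogen, 3 in early anagen, 1 in mid anagen, 2 in late anagen, 1 in catagen, 3 over chin stages, 3 over ventral stages, 2 over dorsal stages, 3 for the interaction, and 2, 3 and 3 in the ear comparisons, since fewer members were tested. In mid anagen the count was 4 with the median of ratios and 4 with quantile normalization, and in late anagen 3 with no filter; the cause was not tested. Without whole groups it was 4 in competent telogen (dorsal left out), 3 in early anagen (ventral left out) and 2 in late anagen (chin left out), each then a comparison of the remaining domains. Leaving out 1 library gave counts of 8 to 9 in competent telogen, 6 to 7 in early anagen, 1 to 4 in mid anagen, 2 to 5 in late anagen, 2 to 5 in catagen, 7 over chin, 8 to 9 over ventral and 5 over dorsal stages, 8 for the interaction, and 3 to 4, 4 to 5 and 4 to 6 in the ear comparisons. In refractory telogen the ventral minus chin difference was 3.31 for Krt8 and 4.02 for Krt19 with the median of ratios, and the ventral minus dorsal difference of Krt18 was 1.76 with TPM. With the replicate block the counts were 8, 7, 3, 4 and 4 from competent telogen to catagen, 7, 9 and 5 over the stages and 8 for the interaction. Same-numbered libraries correlated at -0.0851 to 0.0971 over 31 pairs. Where both groups had 2 libraries, their 2 pairs gave the same value, and the authors describe a batch correction. These values therefore cannot tell whether same-numbered libraries shared an animal or a batch. The ear table allowed no replicate block. Of 105 single differences called, 71 kept their call under every alternative that gave a value, 34 lost it under at least 1 and 0 reversed. Genes near 1 fragment, such as Upk2, are limited by depth.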
